A study of Mus musculus with 16 samples.

Results

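Microglia and brain macrophages sorted from the same 8 combinations of sex, genotype and injected protein were compared, with 8 libraries of each population, which are 16 of the 16 libraries of the series. A library was assigned to its population and to its pair by its title, and a pair joins the microglia and the macrophage library of the same sex (F or M), genotype (KO or WT) and treatment (MONO or PFF). The study examined how the loss of CD163, a scavenger receptor for haptoglobin-hemoglobin complexes found on macrophages, alters the brain's immune response to α-synuclein (α-syn) in a mouse model of Parkinson's disease. WT C57BL/6N mice and CD163KO littermates, which carry the allele CD163tm1.1(KOMP)Vlcg, were injected in both striata at 12 weeks of age with murine α-syn, either as monomers (MONO, which served as the control) or as pre-formed fibrils (PFF), and their brains were taken 2 months p.i. Every animal had thus been injected, and no untreated or saline-injected brain is among these libraries. Cells were sorted by the surface proteins CD11b and CD45, microglia as CD11b positive with low to intermediate CD45 and macrophages as CD11b positive with high CD45. The macrophage gate takes in macrophages of the brain borders and infiltrated macrophages, and also neutrophils and NK cells. RNA was made from 200000 to 500000 sorted microglia but from 10000 to 30000 sorted macrophages, so that cell number and population cannot be told apart. The labels give a purity above 90% after sorting. It is not stated whether a table holds 1 sequenced replicate or several pooled ones, or whether both libraries of a pair came from the same mice, so all p-values measure the spread between 8 pairs that also differ in sex, genotype and treatment.

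Microglia are the resident macrophages of the brain parenchyma. They arise from yolk sac precursors, are kept in their resting state by TGF-beta and by signals through the CSF1 receptor, and carry the purinergic receptor P2RY12, with which they sense nucleotides from damaged cells. Macrophages of the meninges, the perivascular spaces and the choroid plexus sit at the borders of the brain, take up material from blood and cerebrospinal fluid through receptors such as MRC1 (CD206) and LYVE1, and, in part, present antigen on MHC class II. Monocytes, neutrophils and NK cells are blood cells that are present in the vessels and borders of the brain.

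The sequences around the transcription start of a pair of genes that are high in each population are shown here as examples of the regulatory sequence of genes called in each direction. P2ry12 and Mrc1 are markers, and P2ry13 (another purinergic receptor of microglia) and Pf4 (a chemokine of border macrophages) were chosen after their values were seen. Each runs from 250 bases before to 50 bases after the start that RefSeq gives for build GRCm38.p6, read 5′ to 3′ on the strand of the gene, and capitals mark matches to GAGGAAG on either strand, letters that fit the factor PU.1. P2ry12 lies on the minus strand with its window at chr3:59262936-59263235, and P2ry13 next to it on the minus strand with its window at chr3:59210833-59211132. Mrc1 has its window on the plus strand at chr2:14229164-14229463, and Pf4 on the plus strand at chr5:90772185-90772484.
P2ry12: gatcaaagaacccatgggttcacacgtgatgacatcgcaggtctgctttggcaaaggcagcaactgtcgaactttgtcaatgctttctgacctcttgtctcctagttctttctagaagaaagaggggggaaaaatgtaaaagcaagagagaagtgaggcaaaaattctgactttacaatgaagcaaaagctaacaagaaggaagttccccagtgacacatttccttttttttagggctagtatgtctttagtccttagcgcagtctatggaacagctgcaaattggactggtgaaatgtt
P2ry13: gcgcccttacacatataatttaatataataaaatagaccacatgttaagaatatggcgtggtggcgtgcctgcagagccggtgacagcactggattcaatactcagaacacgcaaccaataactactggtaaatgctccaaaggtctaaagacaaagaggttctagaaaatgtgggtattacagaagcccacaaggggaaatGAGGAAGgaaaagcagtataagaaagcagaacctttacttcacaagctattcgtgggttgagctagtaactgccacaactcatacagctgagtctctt
Mrc1: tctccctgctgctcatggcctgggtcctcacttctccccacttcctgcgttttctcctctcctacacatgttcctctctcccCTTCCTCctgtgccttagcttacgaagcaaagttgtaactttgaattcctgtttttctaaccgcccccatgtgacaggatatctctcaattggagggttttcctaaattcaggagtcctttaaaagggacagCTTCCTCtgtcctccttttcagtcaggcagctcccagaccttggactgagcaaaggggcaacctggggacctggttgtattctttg
Pf4: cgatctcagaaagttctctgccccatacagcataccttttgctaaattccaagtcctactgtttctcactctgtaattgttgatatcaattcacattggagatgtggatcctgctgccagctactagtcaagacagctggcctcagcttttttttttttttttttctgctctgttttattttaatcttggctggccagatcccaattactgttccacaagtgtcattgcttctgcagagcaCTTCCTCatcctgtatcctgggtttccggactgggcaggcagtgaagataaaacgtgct
Counted from 1 at the 5′ end, the match lay at bases 203 to 209 in P2ry13, at 83 to 89 and 215 to 221 in Mrc1 and at 242 to 248 in Pf4, and the window of P2ry12 held none. Tmem119 and Lyve1 are not shown. The letters GAGGAAG occurred in 13.6% of all 32851 promoter windows of this length, in the windows of 16.1% of the 8918 genes tested here that have one, and in those of 23.2% of the genes called higher in microglia and 20.0% of those called higher in macrophages. The letters GAAA, any 2 bases and GAAA again, which fit interferon-stimulated response elements, occurred in 3.44% of all windows, 3.88% of tested genes, 2.56% of genes higher in microglia and 7.51% of genes higher in macrophages. For TGANTCA (AP-1) the last 2 shares were 6.71% and 9.21% against 6.06% of tested genes, for TGTGGTT (RUNX) 4.31% and 6.81% against 4.65%, and for CTATTTATA (MEF2) 1.28% and 0.501% against 0.381%. TTGCGCAA (C/EBP) and GTCTAGAC (SMAD) were each found for under 6 genes of either called group. Both strands were searched, and a match is a string of letters, not a bound site.

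The targeted gene was examined first. In macrophages of WT mice, Cd163 stood at 23.4, 24.5, 23.4 and 48.6 TMM-scaled FPKM (a level per transcript length and per library size, divided by a scaling factor per library). In macrophages of CD163KO mice it stood at 0 in 3 libraries and at 0.0246 in the M-KO-PFF library. Microglia had at most 0.73 in any library, with 0 to 101 estimated counts in WT mice and 5 to 23 in CD163KO mice. The deletion was thus visible in macrophages, where the gene is expressed. Genes of the Y chromosome had 350 to 6545 counts in the 8 libraries labelled male and 0 to 2 in 7 libraries labelled female, whereas the microglia library labelled F-KO-MONO had 799, which goes against its label.

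The populations differed in how their reads were spread over genes, and 2 pairs stood apart from the other 6 in this. The 16 libraries held between 8640970 and 21431152 estimated counts of named genes. In macrophages, the 20 most abundant genes took 46.2% to 72.0% of the counts in 6 libraries but 21.1% in M-KO-MONO and 21.4% in M-WT-PFF. In microglia, they took 18.4% to 20.7% in the same 6 pairs but 55.0% in M-KO-MONO and 67.7% in M-WT-PFF. In these 2 pairs, then, the microglia library was the concentrated one, while its leading gene remained Cst3 (cystatin C, a protease inhibitor), which took 18.3% and 19.7% of the counts there against 4.63% to 5.54% in the other microglia. The male CD163KO MONO group is the one that the study left out for inconsistent technical replicates. The labels name 2 batches of mice without saying which library belongs to which, so batches could not be examined.

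**Figure D1:**
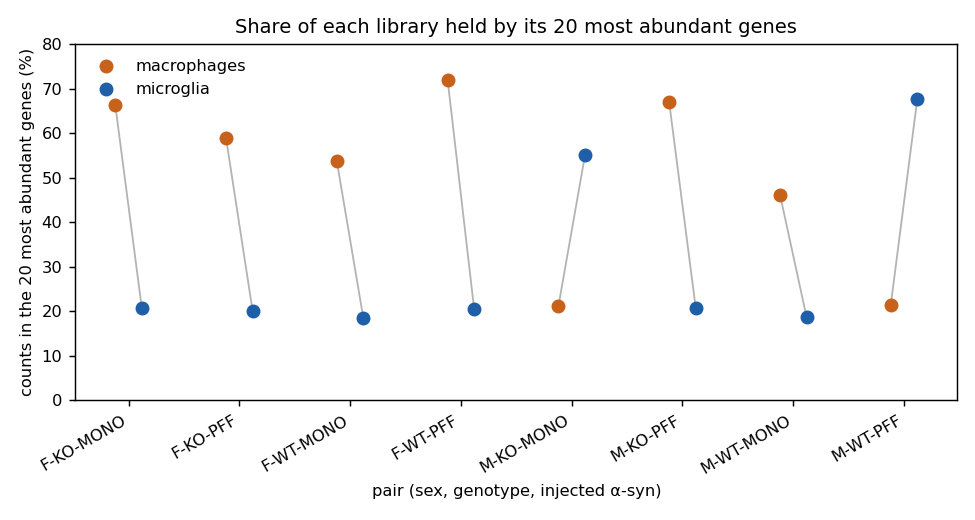
Percent of the counts of each library held by its 20 most abundant genes (vertical axis), for the 8 pairs (horizontal axis), with macrophages and microglia of a pair joined by a line. In 6 pairs the macrophage library is the higher (46.2% to 72.0% against 18.4% to 20.7%), and in M-KO-MONO and M-WT-PFF the microglia library is (55.0% and 67.7% against 21.1% and 21.4%).

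Over all 8 pairs, the share of the 100 most abundant genes was 43.3 ± 18.9% in microglia and 64.3 ± 18.8% in macrophages (SD, n = 8), a paired difference of -21.1 ± 36.6 percentage points that was negative in 6 of 8 pairs and not past the threshold (exact permutation test over sign flips, two-sided, p = 0.141, adjusted p = 0.141 over 2 values). Leaving out 1 pair in turn gave -28.4 points without M-KO-MONO (exact p = 0.0781), -30.3 without M-WT-PFF (exact p = 0.0469) and -20.1 to -17.0 without 1 of the other 6 (exact p of 0.172 to 0.266). With 6 pairs it was -40.4 points, given without a test. Since M-KO-MONO and M-WT-PFF were set apart by a share of this kind, nothing is read from the values without them. When every library was thinned to 8640970 counts, 13130 ± 922 genes were detected in microglia and 11077 ± 1664 in macrophages (SD, n = 8). The difference of 2053 ± 2135 genes had the same sign in 8 of 8 pairs (exact permutation test, two-sided, p = 0.00781, the smallest that 8 pairs allow, adjusted p = 0.0156). With 6 pairs it was 965 genes (exact p = 0.0312). Thinning equalised the total counts, but not the counts left for genes outside the most abundant ones, and the part of this in the difference was not tested. The lower macrophage values of 7735 and 9486 genes were those of the 2 pairs.

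The expression of 10906 genes was compared within pairs. A gene was called when its log2 difference was at least 1 in size and its adjusted p (edgeR's quasi-likelihood test, Benjamini-Hochberg) at most 0.05. In all 2019 genes were called, 791 higher in microglia (7.25% of the genes tested) and 1228 higher in macrophages (11.3%), and 1558 of them lay on 1 side in all 8 pairs. All differences below are microglia minus macrophages on the log2 scale after TMM scaling, and the median over all genes tested was 0.32. A gene that was not called is not thereby shown to be alike in both populations. All 8 microglia libraries lay above all 8 macrophage libraries for 598 genes (5.48%), and the reverse held for 754 genes (6.91%).

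Without the 2 pairs, 11236 genes could be tested and the counts rose to 1801 higher in microglia (16%) and 2088 higher in macrophages (18.6%), with a median of 0.15. Of the 2019 genes called with 8 pairs, 1930 (95.6%) were called in the same direction with 6. Without M-WT-PFF alone, 1203 genes were called higher in microglia. The reverse view shows what the 2 pairs change. Of the 1786 genes called higher in microglia with 6 pairs that could be tested with 8, 208 were lower in microglia in both M-KO-MONO and M-WT-PFF, and of 2000 called higher in macrophages, 493 were higher in microglia in both. The shift differed with abundance. The median difference of the 200 most abundant genes was between -2.55 and -1.87 in 6 pairs, but 0.34 in M-KO-MONO and 0.31 in M-WT-PFF. For the next 800 genes it was between -1.39 and -1.13 in 6 pairs, and 0.26 and -0.10 in the 2. For the other 9906 genes it was between 0.11 and 0.30 in 6 pairs, and 0.35 and 1.94 in the 2. Values for the 2 pairs are given below for several of the genes and lists that they turn. The scaling also bears on the split. With total counts as the only scaling the median of all genes moved to 1.72, and 3885 genes were higher in microglia against 487 higher in macrophages, 88.9% of calls against 39.2% after TMM. Values of genes and lists under that scaling, given below, are to be read against 1.72. The share was 45.1% with DESeq2's size factors and 46.3% with 6 pairs. It was 47.6% with limma on log2(FPKM + 1) and 52.3% with limma on quantile-scaled log2(FPKM + 1), both of which change the test and the measure as well. It was 60.5% with DESeq2's test and 53.6% with no filter on low counts. Because RNA was extracted from a different number of cells in each gate, a level is a share of a library, and fewer cells of a type cannot be told apart from less RNA per cell.

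The 4 markers separated the libraries as labelled in all 8 pairs, the 2 pairs that stand apart included. P2ry12 stood at 637 to 8197 TMM-scaled FPKM in microglia (median 878) and at 32.7 to 80.1 in macrophages (median 57.1), without overlap. The difference was 4.40 (SD 1.38 over the 8 pair differences, adjusted p = 9.41e-05). Tmem119, a membrane protein of microglia, stood at 623 to 5034 in microglia (median 1133) and 25.8 to 118 in macrophages (median 57.8), a difference of 4.45 (SD 0.76, adjusted p = 4.97e-06). The highest value of both genes in microglia was that of M-WT-PFF. Mrc1 stood at 111 to 265 in macrophages (median 166) and at 0.782 to 6.42 in microglia (median 1.19), a difference of -6.89 (SD 1.33, adjusted p = 3.58e-06). Lyve1 stood at 23.8 to 92.9 in macrophages (median 41.5) and at 0 to 2.57 in microglia (median 0.738), a difference of -6.94 (SD 2.66, adjusted p = 0.000772). For Mrc1 and Lyve1 the highest microglia value was that of M-WT-MONO, and no library of 1 population reached into the range of the other.

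**Figure D2:**
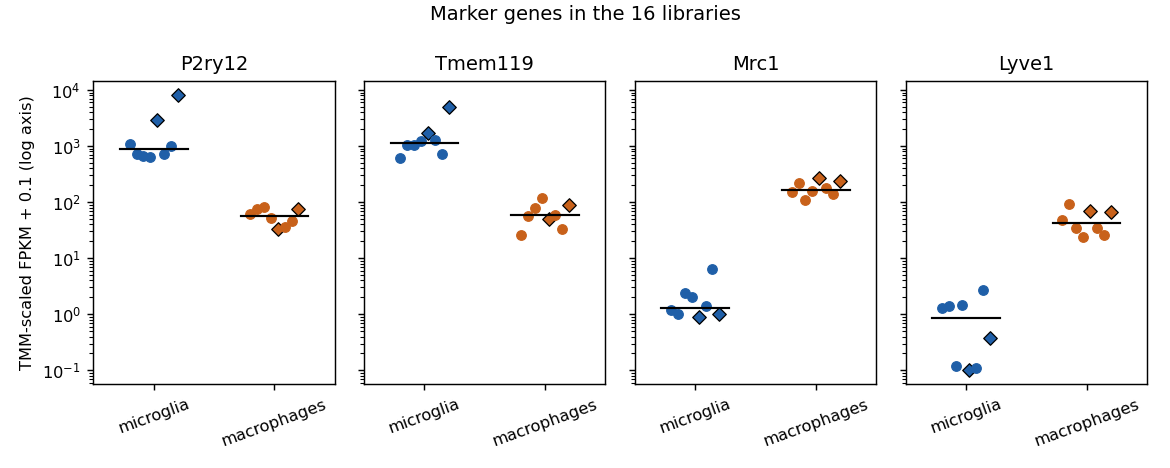
TMM-scaled FPKM + 0.1 on a log axis for the 4 markers (panels), with 1 point per library, 8 microglia and 8 macrophage libraries in each panel, and the median of each group as a line. Diamonds with a black edge are M-KO-MONO and M-WT-PFF. The groups do not overlap for any marker, with P2ry12 at 637 to 8197 in microglia and 32.7 to 80.1 in macrophages.

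CD45, the protein by which the gates were split, is encoded by Ptprc, which stood at 30.2 to 53.6 in microglia and at 47.9 to 225 in macrophages. Its difference of -1.10 (adjusted p = 0.0205) has the direction of the gates and is no finding. It was 0.33 with total counts as the only scaling, and the call was lost with 6 pairs (-0.69), without M-KO-MONO (-0.94), without M-KO-PFF (-1.06) and without M-WT-PFF (-0.89). It was also lost with DESeq2's size factors and with DESeq2's test (-0.99 in both), with no filter on low counts (-0.79) and in the limma fit to quantile-scaled FPKM (-0.49). Itgam encodes CD11b, for which both gates were positive, and stood at 79.9 to 123 in microglia and 18.5 to 63.7 in macrophages, a difference of 1.61 (SD 0.57, adjusted p = 0.000475).

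Of 20 homeostatic microglial genes, 18 were called higher in microglia and 0 higher in macrophages, with a median of 4.32 (4.07 with 6 pairs). The separation was widest for genes that macrophages barely express. Sall1, a transcription factor that keeps microglial identity, stood at 39.8 to 73.8 in microglia and at 0.0149 to 0.998 in macrophages. Slc2a5, a fructose transporter, stood at 115 to 347 in microglia and at 0 to 5.36 in macrophages, a difference of 7.07 (SD 3.12, adjusted p = 0.00072). Cx3cr1, the fractalkine receptor, was less far apart, at 246 to 761 against 44.8 to 102, a difference of 2.62 with an SD of 0.40. Siglech, a lectin of microglia, differed by 3.40, Olfml3 (a secreted protein) by 3.94, Sparc (a matrix glycoprotein) by 4.79 and Gpr34, a receptor for lysophosphatidylserine, by 3.49. The members not called were Fcrls and Ltc4s. Fcrls, an Fc receptor-like scavenger protein, stood at 549 to 2675 in microglia and 314 to 916 in macrophages (difference 0.68, adjusted p = 0.289), and Ltc4s, leukotriene C4 synthase, at 253 to 1447 and 155 to 730 (0.31, adjusted p = 0.675).

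Homeostatic genes were not absent from the macrophage libraries. Per gene, the level in macrophages was a median of 5.74% of that in microglia, with pair medians from 1.34% to 9.18%. The reverse share was lower for the genes of border-associated macrophages, at a median of 0.499% (0.278% to 1.58%). For monocyte genes it was 0.407% (0.0581% to 0.822%), for neutrophil genes 0.882% (0.388% to 5.43%) and for MHC class II genes 4.14% (2.01% to 7.70%). Summed over the 20 homeostatic genes, the level was 9499 to 12132 TMM-scaled FPKM in 6 microglia libraries, 49625 in M-KO-MONO and 102878 in M-WT-PFF, and 1389 to 3742 in macrophages. The part that cells sorted into the other gate may have in these levels was not tested.

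Of 20 genes of border-associated macrophages, 0 were called higher in microglia and 18 higher in macrophages, with a median of -7.24 (-6.72 with 6 pairs). Pf4, platelet factor 4, stood at 1042 to 2381 in macrophages (median 1641) and at 4.5 to 19.7 in microglia (median 7.91), a difference of -7.57 (SD 0.90, adjusted p = 3.83e-07). Mgl2, a galactose-binding lectin, had the smallest spread over pairs of the members named here, at -8.54 with an SD of 0.19 (adjusted p = 8.82e-09), and stood at 354 to 1376 in macrophages and 0.94 to 3.89 in microglia. Both sets of libraries were far apart for these genes in the 2 pairs as well, with means of -7.10 for Pf4 and -8.65 for Mgl2. Cbr2, a carbonyl reductase, differed by -7.56, Folr2, a folate receptor, by -8.24, Ms4a7, a membrane protein, by -8.10, and the C-type lectin Clec10a by -10.69. Cd209f, another lectin, stood at 246 to 2015 in macrophages and at 0 to 8.17 in microglia. Stab1 (the scavenger receptor stabilin-1, -1.58) and Gas6 (a ligand of the TAM receptors, -1.72) were closer, with 21.5 to 47.2 and 26.2 to 57.1 in microglia. Neither Stab1 (-0.42) nor Gas6 (-0.37) was called with total counts as the only scaling, and neither was in the limma fit to quantile-scaled FPKM (-0.88 and -0.99). The members not called were Cd163, which is deleted in 4 of the 8 pairs, and Colec12, a scavenger collectin that stood at 10.4 to 36.4 in macrophages and 4.91 to 42.8 in microglia (-0.80, adjusted p = 0.114).

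Genes of the blood cells that share the macrophage gate were also higher in macrophages. Of 14 monocyte genes, 13 were called higher in macrophages, with a median of -7.97, and Vcan (versican) was the exception, at 0 to 1.37 in macrophages (-2.58, adjusted p = 0.280). Ly6c2, which marks classical monocytes, stood at 187 to 638 in macrophages and at 0.143 to 2.88 in microglia (-8.45, adjusted p = 1.14e-06). Ccr2, the receptor that brings monocytes into tissues, differed by -6.19, and Plac8 by -9.92. Of 15 neutrophil genes, 14 were called higher in macrophages and 1 higher in microglia, with a median of -7.13 (-7.81 with 6 pairs). S100a8, an antimicrobial calcium-binding protein of granulocytes, stood at 32273 to 234123 in macrophages and 264 to 2018 in microglia (-7.13, SD 1.65, adjusted p = 9.12e-05). Retnlg, a resistin-like protein of neutrophils, differed by -10.39 (SD 0.97), Ly6g, the surface antigen of mature neutrophils, by -8.01, and the granule genes Mpo and Elane by -9.24 and -7.85. The member on the other side was Csf3r, the G-CSF receptor, at 75.7 to 159 in microglia and 27.2 to 120 in macrophages (1.03, adjusted p = 0.0102), a call lost without M-WT-MONO (0.99), without F-KO-PFF (0.97), without F-WT-PFF (0.91) and without the pairing as a block (0.85).

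Genes of NK and T cells summed to at least 98.2 TMM-scaled FPKM in every macrophage library and to at most 6.34 in every microglia library. Only 4 of the 15 passed the filter on low counts, which they could do only through the macrophage libraries, so their direction is a description. Nkg7, a granule protein of cytotoxic cells, stood at 69 to 171 in macrophages and at 0 to 2.7 in microglia (-9.07). Gzma (granzyme A) stood at 8.1 to 61.6 and 0 to 0.0855, and Klrk1, an activating receptor of NK cells, at 0.263 to 18.1 and 0 to 0.116. Klrd1, the other one of the 4, differed by -4.12 with 8 pairs, which was not called, and by -5.27 with 6. Of 8 dendritic cell genes that could be tested, 5 were called higher in macrophages, among them Cd209a, at 589 to 2205 in macrophages and 0.0488 to 3.74 in microglia, and Zbtb46, a transcription factor of conventional dendritic cells (-4.25, adjusted p = 0.0154). Neither of the 2 B cell genes tested was called.

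Genes of cells outside either gate were seldom called with 8 pairs. Over all genes tested, 7.25% were called higher in microglia and 11.3% higher in macrophages. Of 3 neuronal, 8 oligodendrocyte, 3 mural, 7 choroid plexus and 4 erythroid genes tested, 0 were called in either direction. Among 8 astrocyte genes 1 was called higher in microglia, and among 6 endothelial and 2 pituitary genes 1 each was called higher in macrophages. With 6 pairs, 1 of 8 astrocyte, 1 of 8 oligodendrocyte and 1 of 6 endothelial genes were called higher in microglia, and 1 astrocyte, 2 oligodendrocyte, 2 endothelial, 1 of 3 mural, 2 of 7 choroid plexus, 1 of 2 pituitary and 2 of 4 erythroid genes higher in macrophages. The median of the choroid plexus genes ran from -4.39 in F-WT-MONO to 4.01 in M-KO-MONO. Their levels were uneven between macrophage libraries. Choroid plexus genes summed to 54.6 to 18254 TMM-scaled FPKM in macrophages and 257 to 1274 in microglia, and pituitary genes to 0.0446 to 951 and 0.0702 to 80.7. Their part in the results was not tested.

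**Figure D3:**
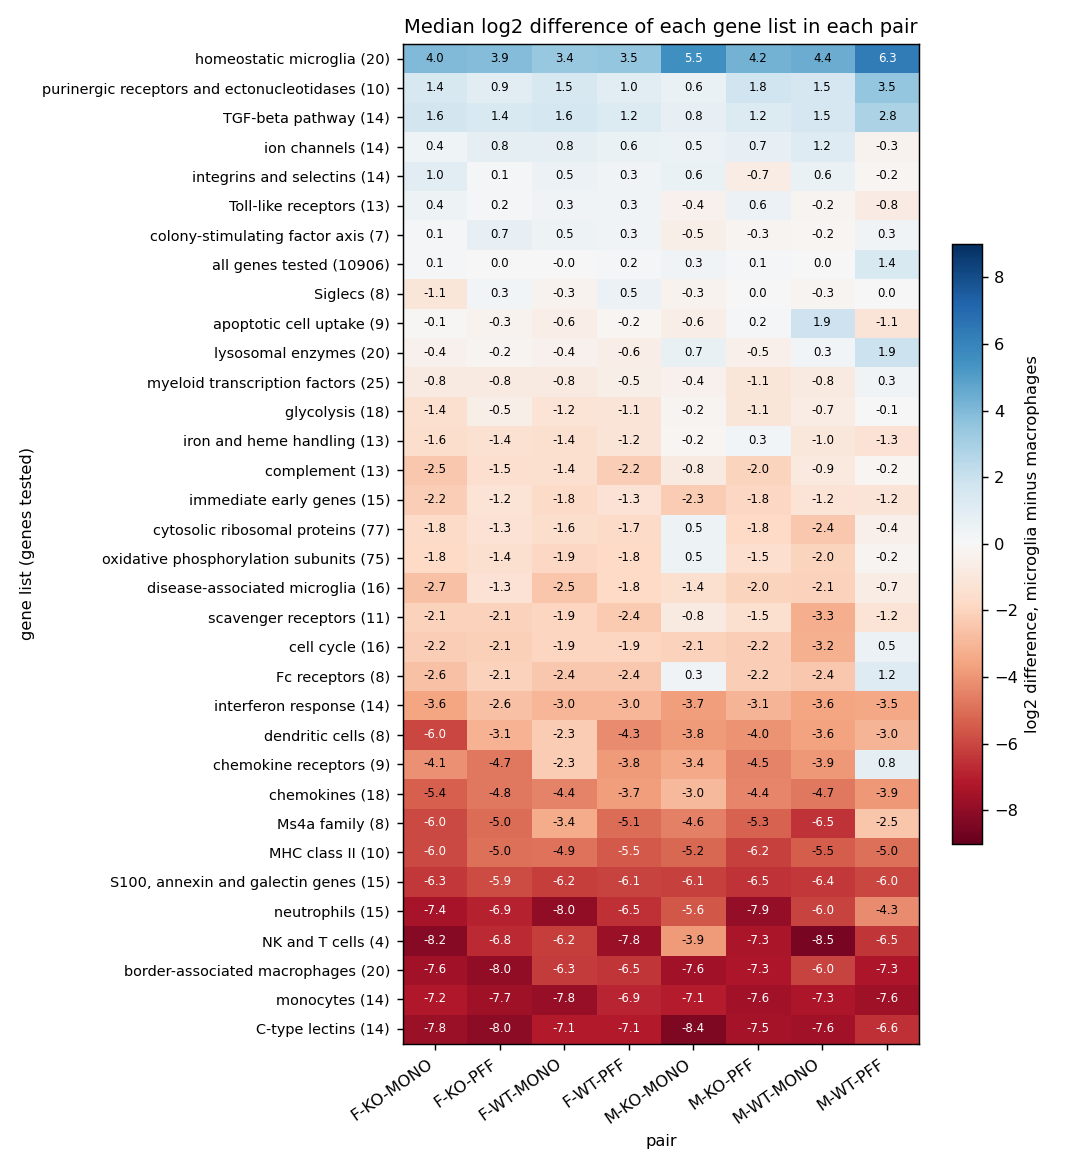
Median log2 difference (microglia minus macrophages) of the gene lists (rows, with the number of genes tested) in each of the 8 pairs (columns), in colour and as a number, with all genes tested as a row of its own. The lists of B cells and of cells outside either gate are not drawn. Lists of border-associated macrophages and monocytes lie between -7.99 and -6.05 in every pair, whereas the ribosomal and oxidative phosphorylation lists are at 0.45 in M-KO-MONO and below 0 in the other 7.

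The transcription factors that maintain the identity of myeloid cells were split between the populations. Of 25 tested, 7 were called higher in microglia and 8 higher in macrophages, with a median of -1.04 (0.16 with total counts as the only scaling, 0.05 in the 2 pairs that stand apart). Sall1 (6.89, adjusted p = 1.14e-05) and its relative Sall3 (6.91) showed the widest gaps, and Sall3 stood at 5.59 to 13.2 in microglia and 0 to 0.781 in macrophages. Bhlhe41 (2.74), Cebpa (1.87) and Mef2a (1.55) were also called higher in microglia, although Mef2a was at -0.13 in the mean of the 2 pairs that stand apart. On the other side, Nr4a1, an orphan nuclear receptor induced by stimulation and required by patrolling monocytes, stood at 84.2 to 273 in macrophages and 7.07 to 45.4 in microglia (-3.46, SD 0.76, adjusted p = 7.73e-06). Irf7, which amplifies interferon responses, stood at 15.4 to 76.7 in macrophages and 0 to 4.65 in microglia (-3.95), and Id2 differed by -2.28. Spi1, which encodes PU.1, was called higher in macrophages (-1.32, adjusted p = 0.00304), but was not called with total counts as the only scaling (-0.18) or in the limma fit to quantile-scaled FPKM (-0.22). Id2 was not called with total counts either (-1.16). Irf8 (0.92), Mef2c (0.91) and Runx1 (0.38) were not called.

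TGF-beta, which microglia activate on their own surface, is needed for their homeostatic genes. Of 14 genes of this pathway tested, 7 were called higher in microglia and 1 higher in macrophages, with a median of 1.28. Tgfbr1, the type I receptor, stood at 95 to 259 in microglia and 15.4 to 29.3 in macrophages (2.82, SD 0.61, adjusted p = 1.53e-05), without overlap. Ski, a repressor of SMAD signalling, stood at 10.1 to 25 and 2.37 to 9.98 (2.06, adjusted p = 0.000725). The ligand Tgfb1 was low in both populations, at 0.0251 to 2.58 in microglia and 0.0223 to 2.08 in macrophages (-0.17, adjusted p = 0.949). Nrros, which anchors latent TGF-beta on myeloid cells, was the member higher in macrophages, at 129 to 295 against 51.2 to 92.4 (-1.42, SD 0.36, adjusted p = 0.000384), and it was not called with total counts as the only scaling (-0.21) or in the limma fit to quantile-scaled FPKM (-0.51).

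Receptors for extracellular nucleotides and adenosine separated by member. Of 10 tested, 4 were called higher in microglia and 2 higher in macrophages, with a median of 1.83. P2ry13, which like P2ry12 responds to ADP, stood at 306 to 1337 in microglia and 32.5 to 164 in macrophages (2.30, SD 1.28, adjusted p = 0.00188). Adora3, an adenosine receptor, stood at 29.7 to 42.7 in microglia and 0 to 2.1 in macrophages (5.52, adjusted p = 0.00151), and Entpd1 (CD39), which degrades ATP and ADP, at 84 to 136 and 25.2 to 62.5 (1.35, SD 0.34, adjusted p = 0.000446). The ATP-gated channel P2rx4 went the other way, at 68.6 to 147 in macrophages and 20 to 34.9 in microglia (-1.76, SD 0.46, adjusted p = 0.000121), which was lost with total counts as the only scaling (-0.58). P2rx7 stood at 55.4 to 90.9 in macrophages and 26.2 to 45.1 in microglia without overlap. Its fitted difference, which rests on counts per gene and not on FPKM, was -0.55 and not past the threshold (adjusted p = 0.222). P2ry6, a receptor for UDP, was at 62.6 to 124 in microglia and 59.5 to 128 in macrophages (0.21, adjusted p = 0.496).

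Antigen presentation on MHC class II was among the widest gaps on the macrophage side. Of 10 genes tested, 0 were called higher in microglia and 8 higher in macrophages, with a median of -5.79 (-5.84 with 6 pairs). Cd74, the invariant chain, stood at 12548 to 347500 in macrophages (median 105111) and at 97.1 to 336 in microglia (median 229), a difference of -8.52 (SD 1.56, adjusted p = 0.000464). The 2 lowest macrophage values were those of M-KO-MONO and M-WT-PFF, and they were still far above every microglia library. H2-Ab1 and H2-Aa, which form the I-A molecule, differed by -9.12 and -8.49, and H2-Eb1 by -7.95 (SD 0.82). Ciita, the activator of these genes, stood at 4.49 to 17.2 in macrophages and 0 to 0.148 in microglia (-8.68, adjusted p = 0.000104). The genes of peptide loading were closer. H2-DMb1 stood at 313 to 2578 in macrophages and 76.8 to 323 in microglia (-2.68), and H2-DMa at 171 to 1087 and 72 to 196 (-2.00, a call lost with total counts as the only scaling, at -0.84, and in the limma fit to quantile-scaled FPKM, at -0.82). H2-Ob was at 14.9 to 20.1 in microglia and 10 to 22.5 in macrophages (0.19, adjusted p = 0.646), and H2-Oa was not called either (-0.69, adjusted p = 0.648).

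Chemokines were higher in macrophages. Of 18 tested, 14 were called in that direction and 0 in the other, with a median of -4.85. Ccl7, which attracts monocytes, stood at 489 to 2573 in macrophages and 1.04 to 12.1 in microglia (-7.99, SD 0.84, adjusted p = 2.57e-07). Ccl8 stood at 149 to 886 and 0 to 6.11 (-8.23), Ccl2 at 303 to 1139 and 14.3 to 24.1 (-5.04, SD 0.67), and Ccl12 at 802 to 3036 and 59.6 to 151 (-4.07). Ccl5, a chemokine of T and NK cells as well, differed by -5.51, and Cxcl16 by -1.90, the latter not called with total counts as the only scaling (-0.76). Microglia were not without chemokines. Ccl3 stood at 151 to 590 in microglia and 129 to 783 in macrophages (-0.73, adjusted p = 0.237), and Ccl4 at 245 to 860 and 179 to 820 (-0.52, adjusted p = 0.305). Of 9 chemokine and formyl peptide receptors tested, 2 were called higher in microglia, Cx3cr1 among them, and 6 higher in macrophages. Ccr1, a receptor for several inflammatory chemokines, stood at 0.488 to 6.1 in microglia and 37.2 to 79.3 in macrophages (-4.62, SD 1.07, adjusted p = 9.89e-06). Fpr1, a receptor for formylated peptides, stood at 30.5 to 145 in macrophages and 0 to 1.55 in microglia.

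The 2 pairs also bear on complement genes. Of 13 tested, 1 was called higher in microglia (Itgam, a gate gene) and 6 higher in macrophages, with a median of -1.01 (0.17 with total counts as the only scaling). C1qb, a chain of C1q, which starts the classical pathway, was lower in microglia in 6 pairs, with differences between -0.79 and -2.97, and higher in microglia in M-KO-MONO (3.93) and M-WT-PFF (5.00). Its level in microglia was 4445 to 6107 in the 6 pairs but 39420 and 94618 in the 2, and in macrophages 7666 to 44429 in the 6 pairs but 2608 and 2886 in the 2. With 8 pairs it was not called (-0.95, adjusted p = 0.585). With 6 it was -1.93, given without a test. The 2 pairs were set apart by the share of their most abundant genes, and C1qb is one of these. C1qc had the same course, at -0.86 with 8 pairs (adjusted p = 0.514) and at -1.75 with 6, likewise without a test. C1qa was not called with 8 pairs (-0.10) and was at -0.66 with 6. Members that did not depend on the 2 pairs were C4b, at 27.7 to 44 in macrophages and 0.508 to 2.39 in microglia (-4.67, SD 0.73, adjusted p = 1.39e-06), Cfp, which encodes properdin (-7.76), C3 (-5.39) and the anaphylatoxin receptor C5ar1 (-2.45, and -1.19 without a call with total counts as the only scaling).

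Receptors that take up modified lipids and dying cells were divided. Of 11 scavenger receptors tested, 1 was called higher in microglia and 5 higher in macrophages, with a median of -1.58. Cd36 stood at 22 to 156 in macrophages and 0.0244 to 1.49 in microglia (-6.31, adjusted p = 4.77e-05), and Msr1 at 30 to 126 and 0.585 to 2.61 (-5.65, adjusted p = 4.97e-06). Cd68, a lysosomal glycoprotein often used as a sign of phagocytic activity, was not called with 8 pairs (-1.24, adjusted p = 0.129). It was at 1.40 in the mean of the 2 pairs and at -1.96 with 6 pairs, given without a test. Among 9 genes for the uptake of apoptotic cells, 4 were called higher in microglia and 3 higher in macrophages, with a median of -0.48 (0.89 with total counts as the only scaling). The TAM receptors split. Mertk stood at 70.1 to 143 in microglia and 5.47 to 15.9 in macrophages (3.26, SD 0.70, adjusted p = 7.89e-06), and Axl at 1.71 to 8.68 and 21.7 to 38.1 (-2.89, SD 0.76, adjusted p = 3.41e-05, though -1.63 without a call with total counts as the only scaling). Their ligands did as well, with Pros1 (protein S) called higher in microglia (1.32, adjusted p = 0.00214) and Gas6 higher in macrophages. Lrp1 (2.15), a receptor for apolipoprotein E and other ligands, and Elmo1 (1.97), which links uptake receptors to the cytoskeleton, were called higher in microglia.

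Of 14 C-type lectins, 13 were called higher in macrophages and 0 higher in microglia, with a median of -8.05. Clec12a, an inhibitory receptor, stood at 116 to 188 in macrophages and 0.0803 to 1.83 in microglia (-7.56, adjusted p = 3.2e-06), Clec4n (Dectin-2) at 98.1 to 192 and 0 to 0.536, and Clec4d at 13.2 to 74.7 and 0 to 0.302. Clec5a was the exception, at 20.3 to 40.3 in microglia and 16.1 to 41.5 in macrophages (0.09, adjusted p = 0.805). Of 8 Ms4a genes tested, 7 were called higher in macrophages and 0 higher in microglia, with a median of -5.49, from Ms4a4a at -8.17 to Ms4a6d at -1.86, which was not called with total counts as the only scaling (-0.69) or in the limma fit to quantile-scaled FPKM (-0.87). Fc receptors gave 4 of 8 called higher in macrophages and 0 higher in microglia, with a median of -2.08. The median was between -2.64 and -2.10 in 6 pairs but 0.31 in M-KO-MONO and 1.17 in M-WT-PFF. Fcgrt, the neonatal Fc receptor, stood at 231 to 623 in macrophages and 38.9 to 60.1 in microglia (-2.74, SD 0.46, adjusted p = 6.97e-06). Fcer1g, the shared gamma chain, was not called with 8 pairs (-2.33, adjusted p = 0.067, with a mean of 1.76 in the 2 pairs). It was at -3.22 with 6 pairs, given without a test.

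Integrins and growth factor receptors were divided as well. Of 14 integrin and selectin genes, 5 were called higher in microglia and 4 higher in macrophages, with a median of 0.56. Itgb5, which pairs with the αv chain, stood at 205 to 392 in microglia and 20.2 to 77.4 in macrophages (2.74, SD 0.86, adjusted p = 8.66e-05), and Itgb3 at 4.38 to 10.2 and 0 to 0.96 (4.75, adjusted p = 0.0131). Selplg, the ligand of P-selectin, stood at 1042 to 10764 in microglia and 167 to 509 in macrophages (2.73, SD 1.35, adjusted p = 0.00234). Itga4, by which leukocytes bind VCAM-1, stood at 3.25 to 6.2 in macrophages and 0.346 to 1.48 in microglia (-2.72, adjusted p = 0.000536, and -1.60 without a call with total counts as the only scaling), and its partner Itgb7 at 12.8 to 78.9 and 0 to 0.586. Csf1r, the receptor that keeps microglia alive, was higher in microglia in 8 of 8 pairs without passing the test (1.28, SD 1.28, adjusted p = 0.0890), at 653 to 6494 against 372 to 1065. Csf2ra, the GM-CSF receptor, stood at 161 to 421 in macrophages and 19.1 to 81 in microglia (-2.63, adjusted p = 0.000131). Of 13 Toll-like receptor genes, 3 were called in each direction, with a median of 0.30 (-0.64 in the 2 pairs that stand apart). Tlr3 (4.80), which binds double-stranded RNA, and Tlr7 (1.25), which binds single-stranded RNA, were among those higher in microglia, Tlr8 (-5.75) and Cd14 (-2.01) among those higher in macrophages. Tlr7 was at -0.07 in the mean of the 2 pairs and was not called without the pairing (0.96, adjusted p = 0.0569), and Cd14 was called neither with total counts as the only scaling (-0.87) nor in the limma fit to quantile-scaled FPKM (-0.67).

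**Figure D4:**
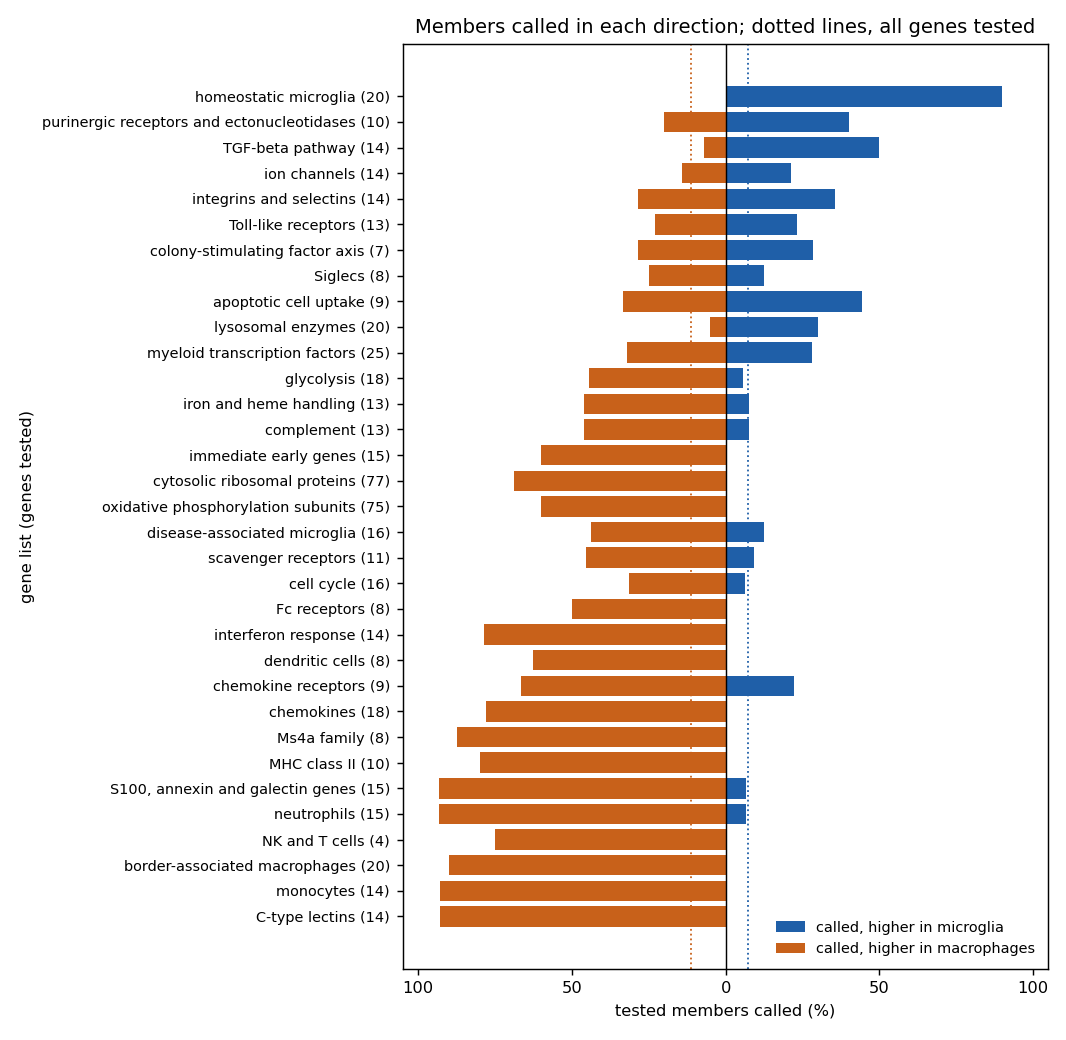
Percent of the tested members of the gene lists called higher in microglia (bars to the right) and higher in macrophages (bars to the left), with dotted lines at the share over all genes tested (7.25% and 11.3%). The lists of B cells and of cells outside either gate are not drawn. Homeostatic genes are called in 18 of 20 to the right, and C-type lectins in 13 of 14 to the left, while integrins, transcription factors and Toll-like receptors have bars on both sides.

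Genes that microglia raise around amyloid plaques, the disease-associated list, were not on the whole higher in microglia than in the macrophages sorted beside them. Of 16 members 2 were called higher in microglia and 7 higher in macrophages, with a median of -1.73. Apoe, the lipid carrier, was among the most abundant genes of the macrophage libraries, at 17674 to 497255 (median 175166) against 957 to 15577 in microglia (median 1733), a difference of -6.16 (SD 2.56, adjusted p = 0.0154). It was -1.98 in the mean of the 2 pairs and -7.01 with 6 pairs, and the call was lost in 5 of the 8 fits that leave 1 pair out, with the largest adjusted p of 0.0822 without M-WT-MONO. Trem2, a lipid-sensing receptor, stood at 888 to 3604 in microglia and 178 to 605 in macrophages (1.90, SD 1.12, adjusted p = 0.0042), and the tetraspanin Cd9 at 348 to 1256 and 136 to 237 (1.60, SD 0.50, adjusted p = 0.000428). Tyrobp, the adaptor of TREM2, was not called (-1.29, adjusted p = 0.115, with a mean of 1.16 in the 2 pairs). Lgals3 (galectin-3) stood at 319 to 772 in macrophages and 1.15 to 10.1 in microglia (-6.51, SD 0.88, adjusted p = 5.41e-07), Spp1 (osteopontin) at 92.7 to 696 and 9.15 to 44 (-3.31), and Igf1 at 6.23 to 18.4 and 0.0122 to 0.727 (-5.19).

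Lysosomal enzymes had a median of 0.00 over 20 genes, 6 called higher in microglia and 1 higher in macrophages. The median was 0.69 in M-KO-MONO, 1.90 in M-WT-PFF, 1.24 with total counts as the only scaling, 1.08 in the limma fit to quantile-scaled FPKM and -0.30 with 6 pairs, where 6 were called higher in microglia and 4 higher in macrophages. The cathepsins took different sides. Ctsl stood at 124 to 185 in microglia and 15.9 to 44.8 in macrophages (2.14, SD 0.58, adjusted p = 6.91e-05), and Ctsf at 86.8 to 144 and 17 to 37.1 (2.13, SD 0.28, adjusted p = 1.22e-05). Ctsd was called at 2.25 (adjusted p = 0.0286), with 4.96 in the mean of the 2 pairs and 1.55 with 6 pairs, a call lost in 5 of 8 fits that leave 1 pair out, with an adjusted p of up to 0.0918 without M-WT-MONO. Ctsc, which activates granule proteases, stood at 305 to 1067 in macrophages and 51.6 to 141 in microglia (-2.81, adjusted p = 0.000227). Ctss went with C1qb, between -0.75 and -2.86 in 6 pairs but at 4.11 in M-KO-MONO and 4.94 in M-WT-PFF (-0.96, adjusted p = 0.587). The glycosidases Hexa (-0.03, adjusted p = 0.954) and Gusb (0.03, adjusted p = 0.933) were not called.

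CD163 takes up hemoglobin, and genes that handle heme and iron were in part higher in macrophages, 6 of 13 tested against 1 higher in microglia, with a median of -1.49. Hmox1, heme oxygenase 1, stood at 27.6 to 68.7 in macrophages and 2.28 to 25.9 in microglia (-2.11, SD 0.77, adjusted p = 0.000511, and -0.93 without a call with total counts as the only scaling). Blvrb, a biliverdin reductase, stood at 70.8 to 230 and 14.1 to 44.4 (-2.63, adjusted p = 0.000238, and -1.45 without a call under that scaling). The ferritin chains Fth1 (-2.53, adjusted p = 0.00604) and Ftl1 (-3.62, adjusted p = 0.0276) were called, but not in the limma fit to quantile-scaled FPKM (-0.68 and -0.95), and Ftl1 was at -0.20 in M-KO-MONO and 1.24 in M-WT-PFF. Ftl1 lost its call in 6 of 8 fits that leave 1 pair out (adjusted p of up to 0.0962 without M-WT-MONO). Slc40a1, the iron exporter ferroportin, stood at 25.3 to 102 in macrophages and 20.2 to 35.6 in microglia (-0.68, adjusted p = 0.144).

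Interferon-response genes were called higher in macrophages for 11 of 14 tested and higher in microglia for 0, with a median of -3.28. Ifitm3, a restriction factor against viruses, stood at 725 to 5658 in macrophages and 6.32 to 82 in microglia (-6.90, SD 2.06, adjusted p = 6.81e-05), Ifitm2 differed by -7.30 and Bst2 (tetherin) by -2.09, the latter not called with total counts as the only scaling (-0.94). Ifit1 was not called with 8 pairs (-2.67, adjusted p = 0.0817). Of 15 S100, annexin, galectin and related genes, 14 were called higher in macrophages, with a median of -6.51. Crip1, a LIM protein, stood at 1090 to 4518 in macrophages and 6.9 to 24.3 in microglia (-7.39, SD 1.02, adjusted p = 6.22e-07), S100a4 differed by -7.97, Anxa1 by -6.62 and Lgals1 by -5.64. Anxa3 was the member called higher in microglia, at 183 to 378 against 35 to 200 (1.68, SD 0.49, adjusted p = 0.000207).

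Immediate early genes, which are induced within minutes of stimulation, were called higher in macrophages for 9 of 15 and higher in microglia for 0, with a median of -1.62. Fos stood at 1139 to 5676 in macrophages and 116 to 462 in microglia (-3.29, SD 0.63, adjusted p = 3.66e-05), and Dusp1, a MAP kinase phosphatase, at 712 to 6289 and 129 to 859 (-3.12, adjusted p = 0.000274). Jun (0.24, adjusted p = 0.663) and Atf3 (0.03, adjusted p = 0.925) were not called. Of 18 glycolytic genes 1 was called higher in microglia and 8 higher in macrophages, with a median of -0.87 (0.29 with total counts as the only scaling). Gapdh stood at 190 to 351 in microglia and 188 to 322 in macrophages (0.04, adjusted p = 0.914), Pfkl was called higher in microglia (1.19, adjusted p = 0.00248), and Eno1 (-1.80) and Ldha (-1.29) higher in macrophages, neither of which was called with total counts as the only scaling (-0.66 and -0.14) or in the limma fit to quantile-scaled FPKM (-0.53 and -0.36). Ldha was not called with no filter on low counts either (-0.99). Of 16 cell cycle genes, 1 was called higher in microglia, Tyms (thymidylate synthase, 2.36, adjusted p = 0.00306), and 5 higher in macrophages, among them Birc5 (survivin), at 9.94 to 112 against 0.841 to 7.13 (-2.61, adjusted p = 0.00428, and -1.49 without a call with total counts as the only scaling).

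Transcripts of the translation and respiration machinery were in large part called higher in macrophages. Of 77 cytosolic ribosomal protein genes, 53 were called higher in macrophages and 0 higher in microglia, with a median of -1.34, and of 75 subunits of oxidative phosphorylation 45 and 0, with a median of -1.37. In M-KO-MONO the medians were 0.45 for both lists, and in M-WT-PFF -0.43 and -0.24, against -1.27 to -2.40 and -1.43 to -2.02 in the other 6 pairs. With total counts as the only scaling both medians were -0.16, beside 1.72 for all genes. Measured from the median of all genes they were -1.88 and -1.87, against -1.66 and -1.69 after TMM. In the limma fit to quantile-scaled FPKM the medians were -0.34 and -0.31, or -0.43 and -0.40 from that of all genes.

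The 12 genes with the largest difference on each side were taken from 1109 eligible genes. Eligible genes were called, of 1 sign in all 8 pairs and at a mean of at least 10 TMM-scaled FPKM in the higher population. The 12 on each side were low in the other population, though some were not silent in every library. On the microglial side these were Slco4a1 (an organic anion transporter), Gm3264, Hspb3 (a small heat shock protein), Gp9 (a chain of the von Willebrand factor receptor), Gm10406, Atp8a2 (a phospholipid flippase), 2610042L04Rik, Rtn4rl1 (a relative of the Nogo receptor), Upk1b (a uroplakin), Whrn (a scaffold protein of hair cells), Klhdc8b and Adgrg1 (the adhesion receptor GPR56). Slco4a1 stood at 6.21 to 18.7 in microglia and at 0 in 7 macrophage libraries, with 4.74 in F-WT-MONO. Adgrg1 stood at 67.2 to 141 in microglia and 0 to 4.9 in macrophages (7.15, SD 2.82, adjusted p = 0.000597), and Upk1b at 58.5 to 134 and 0.0193 to 2.83 (7.72, SD 2.56, adjusted p = 0.000357). Hspb3, on chromosome 13 at 113662896 to 113663676, stood at 39.2 to 123 in microglia and 0 to 3.15 in macrophages. Gm3264, Gm10406 and 2610042L04Rik lie on chromosome 14, had estimated counts that are not whole and may share reads with near-identical copies, so their values are uncertain.

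On the macrophage side these genes included Prg2 (eosinophil major basic protein), Slfn1 (a schlafen), Trem1 (a receptor that amplifies inflammation), Ceacam10, Ifitm1, Gm9733, Ccl17 (a chemokine of dendritic cells), Il1r2 (the decoy receptor of interleukin 1), Gm5150, Gzma and Jaml (a junction protein of leukocytes). Prg2 stood at 6.42 to 290 in macrophages and at 0 in all 8 microglia libraries. This makes it at least 514-fold higher in macrophages, taking 3 counts in each microglia library as the floor. Gm5150, likewise at 0 in all microglia libraries, was at least 94.5-fold higher. Slfn1 stood at 40.4 to 175 in macrophages and had 2 counts in all microglia libraries together against 20273 in macrophages. Trem1 stood at 13.4 to 45.8 in macrophages and at 0 in 6 microglia libraries, and Il1r2 at 17.1 to 109 and at 0 in 6. Fitted differences of genes near 0 in 1 population depend on the small count that the fit adds, and only their direction should be read.

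**Figure D5:**
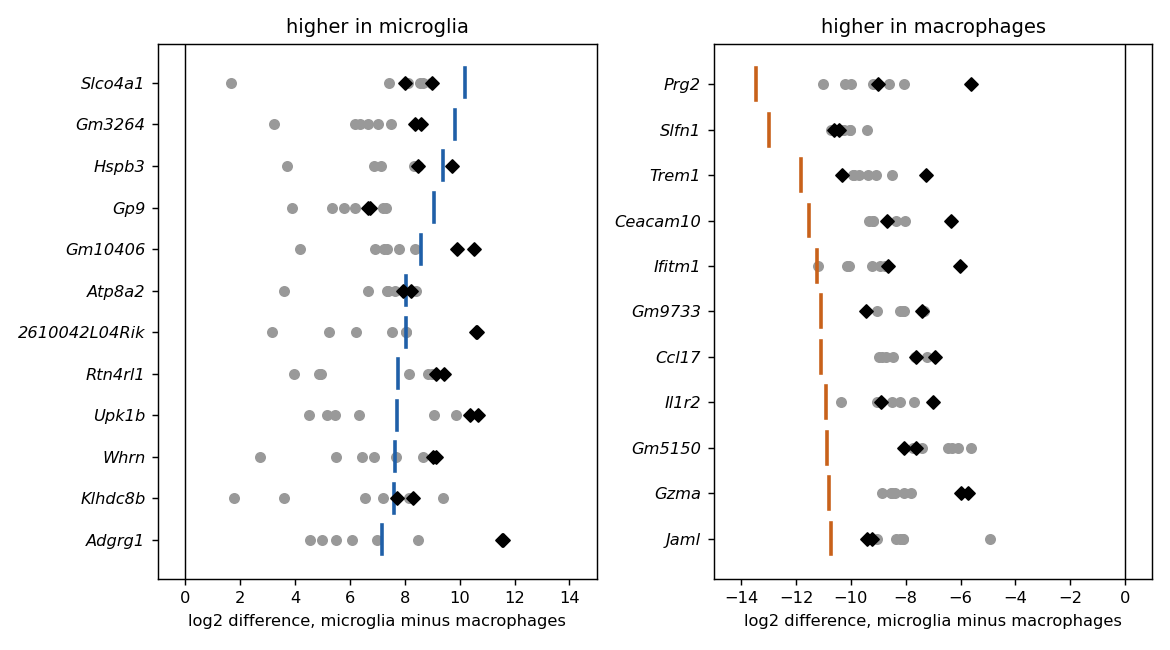
Log2 difference (microglia minus macrophages, horizontal axis) of the genes named for the largest differences on each side, with 1 point per pair, M-KO-MONO and M-WT-PFF as black diamonds, and the fitted value as a vertical bar. All points lie on 1 side of 0, the nearest for Slco4a1 at 1.66 and for Jaml at -4.92, and for many genes the fitted bar lies beyond the points because 1 population is near 0.

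The most abundant genes among those at least 4-fold apart included Ctsd, Selplg, P2ry12, Gpr34, Tmem119, Sparc and Olfml3 in microglia, and Apoe, Lyz2, Cd74, S100a8, H2-Ab1, Ftl1, S100a9 and H2-Aa in macrophages. Ctsd was under 4-fold without M-WT-PFF (1.86), without M-KO-MONO (1.98) and with 6 pairs (1.55). Lyz2 (lysozyme) stood at 16261 to 255774 in macrophages (median 99480) and 313 to 1532 in microglia (-7.44, SD 1.94, adjusted p = 0.00114). S100a9 stood at 8316 to 49213 in macrophages and 80.7 to 452 in microglia, and H2-Aa at 2356 to 48804 and 19.6 to 50.4. The lowest macrophage levels are those of the 2 pairs in which the macrophage libraries are the less concentrated.

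Whether the difference between the populations depends on treatment, sex or genotype was tested with 4 pairs against 4. For each of the 3 factors, 0 genes were called (0% of 10906), with edgeR's quasi-likelihood test and with 6 pairs alike. At an unadjusted p under 0.05 there were 0.954% of genes for treatment, 2.35% for sex and 0.734% for genotype with 8 pairs, and 4.38%, 5.44% and 3.44% with 6. DESeq2 called 10, 100 and 8. The smallest adjusted p was that of Csnk1g3 for treatment (-4.99, adjusted p = 1.00), of Upk1b for sex (6.17, adjusted p = 0.205) and of Cd163 for genotype (14.49, adjusted p = 0.196). Of these Cd163 is the deleted gene, with differences of -5.29, -5.02, -9.90 and -9.86 in the 4 WT pairs and 0.26 to 2.92 in the 4 CD163KO pairs. The difference of Upk1b was 9.06 to 10.67 in the 4 male pairs and 4.50 to 6.32 in the 4 female pairs. As the deleted gene itself was not called, the absence of calls does not show that the populations responded alike. Without the pair F-KO-MONO, whose microglia library goes against its label, the test of sex also gave 0 genes.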

How the data were processed

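RNA of sorted cells was sequenced with the SMART-seq2 protocol, and each of the 16 libraries has a table of RefSeq transcripts. Per the submitters' processing notes, the authors used Bowtie2, RSEM, DESeq2 and build mm10. The deposited tables give the authors' RSEM expected counts, which are estimated counts that need not be whole and are not normalized, and the authors' FPKM, which is scaled to transcript length and library size. The number of reads per library before alignment is not given in the sources used here.

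Both values were summed per gene symbol, with transcripts that a table does not list set to 0. Of 27787 transcripts 155 had no symbol and were left out (0.0125% to 0.1279% of a library's counts), which gave 18580 genes. Expected counts were rounded and tested with edgeR's quasi-likelihood test (edgeR 4.0.16, limma 3.58.1, R 4.3.3) after TMM scaling and edgeR's filter on low counts, with the pair as a block. A gene was called at a Benjamini-Hochberg adjusted p of at most 0.05 and a log2 difference of at least 1 in size. Differences of single pairs, their SDs and the means of the 2 pairs carry a prior count of 2. Fitted values do not, and carry only edgeR's default. Levels are the deposited FPKM divided by the TMM factor. Pairs are those of the titles. After removing the mean of each population, the correlation between the 2 libraries of a pair was 0.022, 0.02, 0.023 and 0.142 in the female pairs and -0.141, 0.016, 0.032 and -0.012 in the male pairs. Interactions with treatment, sex and genotype were fitted to the 8 pairs. Genes detected, after thinning to 8640970 counts, and the share of the 100 most abundant genes were compared by an exact permutation test over sign flips. DESeq2 1.42.0, limma on log2(FPKM + 1), other scalings and filters, no block and each pair left out served as alternatives. The fits were tested on simulated data. Tables were made with Python 3.11.15, numpy 2.4.6, pandas 2.3.3 and scipy 1.17.1, and figures with matplotlib 3.10.9. Counting error and the spread between pairs set the precision, and intervals for counting error alone are not given.

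The members of the comparison and the 42 gene lists were chosen with earlier results of these data known. Named genes are the 12 with the largest difference on each side among 1109 eligible genes (357 higher in microglia, 752 higher in macrophages), which were called, of 1 sign in all 8 pairs and at a mean of at least 10 TMM-scaled FPKM, the 8 most abundant on each side among genes at least 4-fold apart, the markers and members of the lists. Leaving out 2 pairs together and fitting limma to quantile-scaled log2(FPKM + 1) were chosen after seeing the data. Some of the genes that this rule names are not reported here.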

Additional observations from a re-analysis of the deposited data

Results flagged for a closer look

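Among 84 groups of 8 values checked, 10 held a pair that lay farther from the nearest other pair than Dixon's 95% limit allows, and chance gives this in about 1 of 20 groups. Of the genes with the largest differences, Slco4a1 was nearer to 0 in F-WT-MONO (1.66) than in any other pair, as was Atp8a2 (3.61) in the same pair. Gm3264 (3.23) and Hspb3 (3.69) were nearest to 0 in F-WT-PFF. On the macrophage side Jaml stood out in F-KO-MONO (-4.92), again nearer to 0 than the other pairs.

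For 4 gene lists the median log2 difference (microglia minus macrophages) of M-WT-PFF stood out above the other 7 pairs. It was 2.84 for the TGF-beta pathway, 3.49 for purinergic receptors and ectonucleotidases, 0.840 for chemokine receptors and 0.530 for cell cycle genes, while the median over all genes of that pair was 1.40. For apoptotic cell uptake, M-WT-MONO stood out at 1.85.

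The median of 8 Siglecs, lectins that bind sialic acid, lay above 0 in all 4 PFF pairs (0.28, 0.52, 0.03 and 0.04) and below 0 in all 4 MONO pairs (-1.08, -0.31, -0.34 and -0.26), a difference between treatments of 0.715 that was not tested. Over all genes tested, the medians of these pairs were 0.04, 0.16, 0.13 and 1.40 for PFF and 0.13, -0.02, 0.33 and 0.00 for MONO. In M-KO-PFF and M-WT-PFF the Siglecs thus lay below all genes, and the split holds only against 0.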

How the results depend on the processing

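Against 2019 genes called (791 higher in microglia, 1228 higher in macrophages), total counts as the only scaling gave 4372 (3885 and 487), DESeq2's test 3817 (2309 higher in microglia), 6 pairs 3889 (1801 and 2088) and a minimum log2 difference of 2 gave 1193 (501 and 692). Higher in microglia were 1319 genes with limma on log2(FPKM + 1), 1311 with limma on quantile-scaled log2(FPKM + 1) and 1203 without M-WT-PFF. Leaving out 1 pair gave 1537 to 2839 genes, 548 to 1203 of them higher in microglia and 962 to 1636 higher in macrophages. Without the pairing as a block, 2419 genes were called (839 and 1580). The titles fix the pairs, but the correlations within pairs do not show that they share animals. For the interactions, DESeq2 called 10 genes for treatment, 100 for sex and 8 for genotype, the sex term fitted alone called 1, the genotype term with no filter called 1, and no fit that left out a pair called any. The share of the 100 most abundant genes differed by -30.3 points without M-WT-PFF and -40.4 with 6 pairs, with -30.3 to -17.0 over all pairs left out in turn, and the difference in genes detected was 1443 to 2296. The cause of these changes was not tested.

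Of 179 genes named, 146 of them called, 132 had the same call under every alternative run. Calls were lost by 5 genes when 1 pair was left out (Ctsd, Apoe, Ftl1, Csf3r and Ptprc) and by 24 under another setting, and 21 gained a call. Of the 146 genes called, Ptprc, a gate gene, was the one that changed sign, to 0.33 with total counts as the only scaling. Genes not called, such as C1qb, Ctss and Cd68, changed sign under some alternatives. Both 6 pairs and the limma fit to quantile-scaled values were chosen after seeing the data.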
